A study of Oryza sativa Japonica Group with 6 samples.

Results

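The 7 genes described here encode the enzymes that make and break down abscisic acid (ABA) at its regulated steps in rice. They are the zeaxanthin epoxidase ABA1 (Os04g0448900), the 9-cis-epoxycarotenoid dioxygenases NCED3 (Os03g0645900), NCED4 (Os07g0154100) and NCED5 (Os12g0617400), and the ABA 8′-hydroxylases ABA8ox1 (Os02g0703600), ABA8ox2 (Os08g0472800) and ABA8ox3 (Os09g0457100). The members were listed by locus identifier, and every probe of these loci was taken, which gave 7 probes, 1 per locus, among 42477 non-control probes and 28855 loci on the array. Leaf blade RNA was measured on 6 single-colour arrays, 3 labelled Line 13 and 3 labelled wild type. Line 13 is a transgenic rice line made to overexpress a linalool synthase, and the wild type is untransformed rice. Both groups were untreated Nipponbare plants grown from seed at 25 °C, sampled as blades of the fourth leaf at the stage of 4 leaves, with at least 3 plants pooled per sample. The transgenic group is a single line, and the sources used here do not give the promoter of its transgene.

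ABA is a plant hormone made from carotenoids. Zeaxanthin epoxidase forms violaxanthin in the plastid, a 9-cis-epoxycarotenoid dioxygenase (NCED) cleaves the epoxycarotenoid to xanthoxin in the step that commits carbon to the hormone, and enzymes of the cytosol convert xanthoxin to ABA. The 8′-hydroxylases are cytochrome P450 enzymes of the CYP707A family that start the main route of ABA breakdown. In leaves the balance of these steps sets the hormone level behind stomatal closure and the response to water deficit, through receptors of the PYR/PYL family, clade A protein phosphatases 2C, SnRK2 kinases (SAPK in rice) and bZIP transcription factors.

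Several features of the arrays bear on every value below. Each value is a scaled log2 signal, meaning the processed spot signal of a probe divided by the 75th percentile of its array and put on the log2 scale, so a difference of 1 is a 2-fold difference. The locus of linalool synthase, Os02g0121700, gave scaled log2 signals of -6.52, -5.84 and -3.65 on the arrays labelled Line 13, against -3.32, -0.92 and -1.50 on those labelled wild type (difference -3.43, SE 0.90, limma adjusted p = 0.0185). This is opposite to the overexpression that the label gives, so each direction below is one between array labels. The sources used here do not say whether that single probe would detect the transgene. All arrays labelled Line 13 shared a slide and scan day and all arrays labelled wild type shared another, so slide and group cannot be told apart. Across probes, Line 13 replicate 1 correlated at 0.926 and 0.906 with the other arrays of its label, which correlated at 0.981 with each other, and wild-type arrays correlated at 0.977 to 0.992.

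Markers of the labelled tissue were present on both sets of arrays. A leaf photosynthesis list had all of its 13 genes well above background on each of the 6 arrays, and their summed signal was 535 to 1177 times the 75th percentile of the array on those labelled Line 13, against 1640 to 2183 times on those labelled wild type, with 8 genes lower and 1 higher. All 10 genes of a cell division list were higher, with summed signals of 9.81 to 20.2 on the arrays labelled Line 13 and 1.17 to 1.50 on those labelled wild type, where 6 of the 10 were well above background on no array. Of 5 KNOX genes of shoot meristems, 2 of 3 tested were higher and 4 were well above background on no wild-type array, with sums of 0.0792 to 1.22 under the Line 13 label and 0.0425 to 0.101 under the wild-type label. Of 9 floral MADS-box genes, 2 of 5 tested were lower and none higher, with sums of 0.192 to 0.332 under the Line 13 label and 0.560 to 0.668 under the wild-type label. Both root-expressed genes RCc2 and RCc3 were higher and were well above background on no wild-type array, and their sums were 24.5 to 29.5 under the Line 13 label against 0.00743 to 0.0145 under the wild-type label. These counts are to be read against the 54.7% of everything tested that passed, 26.8% higher and 28.0% lower. Of the 10 cell division genes 3 were well above background on every wild-type array. The others, both called KNOX genes and both root-expressed genes entered the test through the arrays labelled Line 13. The cell division gene CDKB1 passed narrowly (limma adjusted p = 0.0497). The part of these tissue markers in the ABA gene results was not tested. In RNA from a whole blade, fewer cells of a type and less RNA per cell cannot be told apart.

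On the arrays labelled Line 13 the epoxidase gene, 1 of the 3 NCED genes and 2 of the 3 hydroxylase genes were lower, and the other 2 NCED genes were higher. In the limma fit over 22232 loci and unassigned probes, 6 of the 7 genes passed at an adjusted p under 0.05. In that fit 54.7% of everything tested passed, 26.8% higher and 28.0% lower on the arrays labelled Line 13, and the count of 6 in 7 is to be read against these shares. Of those calls 48.9% were higher, or 36.0% with the array median in place of the 75th percentile as the scale, which shifted the median difference over everything tested by -0.31. The values of the 2 groups did not overlap for the same 6 genes, as for 68.5% of everything tested. All but NCED4 stood well above background on every array. The number of arrays limits the precision, and an exact permutation test of 3 against 3 arrays cannot give a two-sided p below 0.1, the value that each of the 6 genes had.

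**Figure D1:**
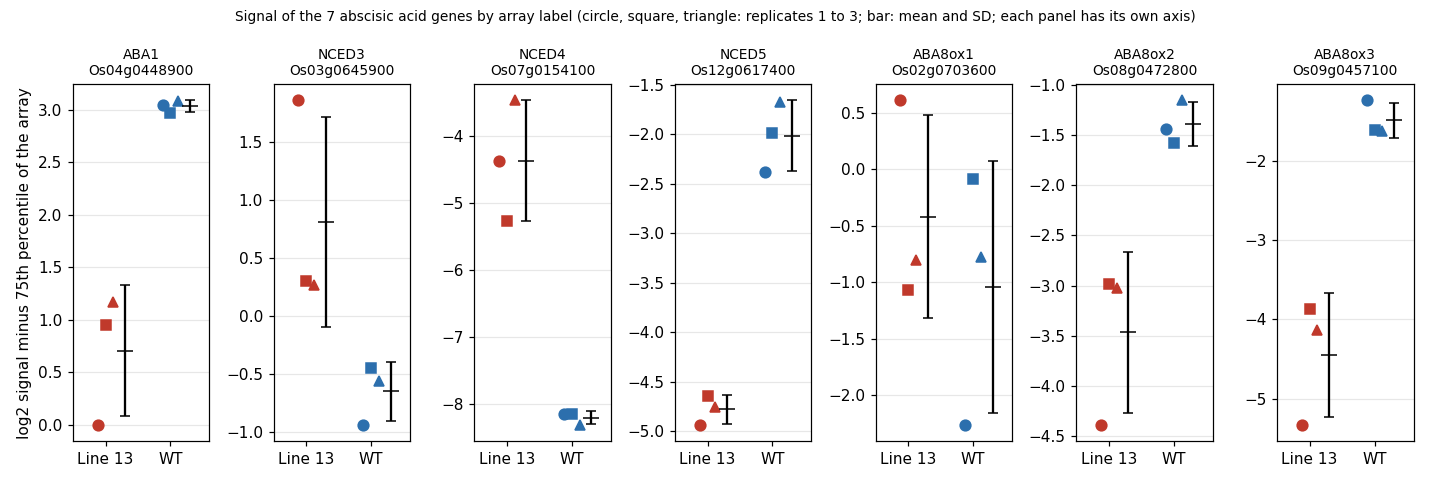
Scaled log2 signal (log2 signal minus the 75th percentile of the array) of the 7 genes, with the arrays labelled Line 13 in red and those labelled wild type in blue. Points are arrays and bars are the mean and SD of 3 arrays. The groups overlap for ABA8ox1, where wild-type replicate 1 lies at -2.26, and for no other gene.

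Synthesis begins with ABA1, which supplies the epoxidised carotenoids. Its scaled log2 signal was -0.01, 0.95 and 1.17 on Line 13 replicates 1 to 3, against 3.05, 2.97 and 3.08 on wild-type replicates 1 to 3. The wild-type values lay within 0.112 of each other, while Line 13 replicate 1 lay apart from the other arrays of its label. The gene was 5.03-fold lower on the arrays labelled Line 13 (difference -2.33, SE 0.33, 95% interval -3.12 to -1.54, limma adjusted p = 0.00165). Without Line 13 replicate 1 the difference was -1.97, with adjusted p = 0.000286, and over the alternatives tried that p lay between 0.000286 and 0.00948.

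The NCED genes went in both directions. NCED5 gave -4.94, -4.65 and -4.76 on the arrays labelled Line 13 and -2.38, -1.99 and -1.67 on those labelled wild type. Every Line 13 array lay at least 2.26 below every wild-type array, and the 3 arrays labelled Line 13 spanned only 0.293, the narrowest range of the 7 genes under that label. The NCED5 signal on Line 13 replicate 1 was 10.6, near the lowest signal well above background on that array, 7.33. NCED5 was 6.80-fold lower (difference -2.77, SE 0.24, limma adjusted p = 0.000210).

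NCED3, whose transcript is known to rise when rice loses water, was higher. Its scaled log2 signal was 1.86, 0.30 and 0.27 on the arrays labelled Line 13 and -0.94, -0.45 and -0.55 on those labelled wild type. The groups were separated by 0.718, and Line 13 replicate 1 stood above the other arrays of its label. The fit gave a 2.75-fold higher signal (difference 1.46, SE 0.46, 95% interval 0.35 to 2.56, limma adjusted p = 0.0345). This call was the weakest of the 6: it was lost without any single wild-type array (adjusted p = 0.0727 to 0.106), with the array median as the scale (difference 1.14, adjusted p = 0.0830) and with the replicate number as a block (adjusted p = 0.0624). Without Line 13 replicate 1 the difference was 0.93, with adjusted p = 0.00939, the lowest over the alternatives, of which 0.106 was the highest.

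NCED4 was near background on the wild-type side. Its scaled log2 signal was -4.37, -5.27 and -3.46 on the arrays labelled Line 13, all 3 of them well above background, against -8.15, -8.14 and -8.31 on those labelled wild type, none of them well above it. The probe therefore entered the test through the group in which it was bright, and the fitted difference of 3.83 (SE 0.44, limma adjusted p = 0.000729) is no measure of size. Set against the lowest signal of any probe whose spots were all well above background on each wild-type array, the gene was 3.14-fold higher. This floored fold, a log2 difference of 1.65, holds for the processed signal and is no strict lower bound. A background correction that lifts dim signals gave a difference of 0.94 with adjusted p = 0.0982, where the other alternatives that kept the probe gave 0.000583 to 0.00491.

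The breakdown genes differed among themselves. ABA8ox3 gave -5.34, -3.87 and -4.13 on the arrays labelled Line 13, against -1.23, -1.61 and -1.62 on those labelled wild type. It was 7.79-fold lower (difference -2.96, SE 0.40, limma adjusted p = 0.00145). ABA8ox2 gave -4.39, -2.98 and -3.02 under the Line 13 label and -1.43, -1.58 and -1.15 under the wild-type label. It was 4.21-fold lower (difference -2.07, SE 0.41, limma adjusted p = 0.00639). For both hydroxylases the groups were apart by more than the range within the wild-type arrays. For ABA8ox2, though, the gap of 1.401 was just below the Line 13 range of 1.406. Line 13 replicate 1 was the lowest array for both. It was also the dimmest array, with a 75th percentile of 325 against 720 to 1559 on the others. The ABA8ox3 signal there was 8.05, close to the lowest signal well above background on that array, 7.33. Without that array the differences were -2.52 for ABA8ox3 and -1.61 for ABA8ox2, and both calls held. The background correction that lifts dim signals gave smaller falls for the 3 dimmer genes, -1.83 for ABA8ox3, -1.18 for ABA8ox2 and -1.42 for NCED5, all of which passed.

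ABA8ox1 did not pass the test. Its scaled log2 signal was 0.61, -1.06 and -0.80 on the arrays labelled Line 13 and -2.26, -0.08 and -0.77 on those labelled wild type. The groups overlapped, with the lowest value on wild-type replicate 1 and the highest on Line 13 replicate 1. The difference was 0.62 (SE 0.67, limma adjusted p = 0.460), and its 95% interval of -0.996 to 2.24 holds falls as well as rises. Its SD over the wild-type arrays was 1.12, well above the 0.218 of ABA8ox2 and the 0.221 of ABA8ox3. Without wild-type replicate 1 the difference was 0.01.

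**Figure D2:**
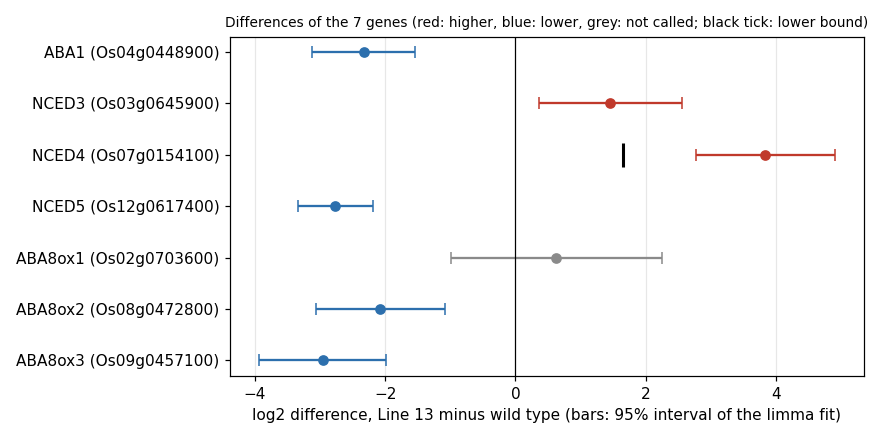
Log2 difference of each gene, Line 13 minus wild type by array label, with the 95% interval of the limma fit. Points are red where the call is higher, blue where it is lower and grey where the test was not passed. The black tick for NCED4, titled lower bound, marks its floored log2 difference of 1.65.

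The spread among the arrays labelled Line 13 was larger than among those labelled wild type for 5 of the 7 genes, the exceptions being NCED5 and ABA8ox1. The median SD over the 7 genes was 0.802 under the Line 13 label and 0.221 under the wild-type label, against 0.426 and 0.178 over everything tested. Replicate 1 of Line 13 was the lowest array of its label for ABA1, NCED5, ABA8ox2 and ABA8ox3 and the highest for NCED3 and ABA8ox1. All 4 genes that were lower across the labels were thus lowest on that array.

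Differences between genes on the same array do not depend on how arrays are scaled. The log2 signal of NCED3 minus that of NCED5 was 6.79, 4.95 and 5.03 on the arrays labelled Line 13 and 1.45, 1.54 and 1.12 on those labelled wild type, a change of 4.22. These 2 dioxygenase genes therefore changed unequally on every pair of arrays compared. The log2 signal of ABA8ox1 minus that of ABA8ox3 was 5.95, 2.81 and 3.33 under the Line 13 label and -1.04, 1.52 and 0.84 under the wild-type label, a change of 3.58. NCED5 and ABA8ox3, a gene of synthesis and a gene of breakdown, overlapped in this measure, at 0.40, -0.77 and -0.63 under the Line 13 label and -1.15, -0.38 and -0.06 under the wild-type label, a change of 0.19 between sets of values that each spread over more than that. For the first and second of these pairs p was 0.1 by an exact permutation test, two-sided, and for the third it was 0.7. Over the 21 pairs of the 7 genes the smallest adjusted p by this test was 0.131. Neither the exact p nor its adjusted value can fall below 0.1 here, so no pair could pass it.

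Of 53 further genes of the pathway 46 could be tested, and 65.2% of them passed, 16 higher and 14 lower, against 54.7% of everything tested. The list of further synthesis genes held 7 loci, of which 4 could be tested. Of these 3 were lower and none higher, and the median difference was -0.999, against -0.07 over everything tested. The 3 calls were 2 under the replicate block, without any single wild-type array and without Line 13 replicate 2, and without Line 13 replicate 1 or without a filter 1 gene was called higher beside the 3 lower. The largest difference of the list was that of Os02g0704000, a carotenoid cleavage dioxygenase that has been called both NCED1 and CCD4a. Its scaled log2 signal was -2.29, 0.51 and -0.22 on the arrays labelled Line 13, against 4.26, 3.86 and 3.97 on those labelled wild type. It was 26.0-fold lower (difference -4.70, SE 0.69, limma adjusted p = 0.00194), and its other 2 probes gave -3.37 and -4.59. Line 13 replicate 1 stood below the other arrays of its label, and the fall was 14.8-fold without it (difference -3.88), against 39.1-fold without Line 13 replicate 2 (difference -5.29). The related Os12g0435200, called NCED2 or CCD4b, was not tested: it was well above background on 2 of 3 arrays labelled Line 13, at -5.82, -4.34 and -4.70, and on none labelled wild type, at -8.00, -8.00 and -7.79.

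The other tested genes of this list moved less than Os02g0704000. ABA3, which activates the molybdenum cofactor of the final oxidase, was 1.89-fold lower (difference -0.92, SE 0.19, limma adjusted p = 0.00777). ABA2, the xanthoxin dehydrogenase, gave a difference of 0.31 (SE 0.20, 95% interval -0.17 to 0.80) and did not pass, with limma adjusted p = 0.221. Violaxanthin de-epoxidase, which works against the epoxidase, was lower with a difference of -1.08 (SE 0.32, limma adjusted p = 0.0281), a call lost without any single wild-type array, without Line 13 replicate 2 and under the replicate block (adjusted p = 0.0524 to 0.0914). The probe of the aldehyde oxidase AO3 was not well above background on any array.

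Perception and signalling genes were called in both directions, with list medians below 0, and the balance of the calls moved with the scale. Of the tested receptor, phosphatase, kinase and transcription factor genes 80%, 44.4%, 50% and 50% passed, against 54.7% of everything tested. Only the receptor share, from 5 tested genes, lay above that of everything tested. Of 7 PYR/PYL receptor genes 5 were tested, with 1 higher, 3 lower and a median difference of -0.82. PYL1 rose to 2.41, 2.02 and 1.64 on the arrays labelled Line 13, against -0.04, 0.03 and 0.26 on those labelled wild type (difference 1.94, SE 0.25, limma adjusted p = 0.00114), while PYL11 was lower by a fitted difference of -0.82 (SE 0.18, limma adjusted p = 0.00896). The count of 4 receptor calls was 2 without wild-type replicate 2 or without Line 13 replicate 2.

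All 9 clade A phosphatase genes, whose products hold the pathway off until the hormone binds its receptor, were tested, with 2 higher, 2 lower and a median difference of -0.59. PP2C08 was 3.76-fold lower (difference -1.91, SE 0.21, limma adjusted p = 0.000611) and PP2C53 was 4.89-fold higher (difference 2.29, SE 0.36, limma adjusted p = 0.00244). The PP2C53 signals on the wild-type arrays were dim, at 15.1, 16.1 and 37.0. Its rise was 2.13-fold with the background correction that lifts dim signals and 3.31-fold with quantile normalization. PP2C50, the other higher gene, entered the test through the arrays labelled Line 13. Only 2 of its wild-type signals, at 7.67, 23.4 and 23.6, cleared background well. When a probe had to do so on all 6 arrays, 1 phosphatase gene was higher and 3 were lower. Counts were the same with the background correction that lifts dim signals. With the array median as the scale 5 were lower and 2 higher. The even split of the phosphatase calls thus depended on the filter, the background correction and the scale.

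The 10 SAPK kinase genes were all tested and had 3 higher, 2 lower and a median difference of -0.72. SAPK6 was lower, with a difference of -1.39 (SE 0.22, limma adjusted p = 0.00282), and SAPK10 was higher, with a difference of 1.07 (SE 0.25, limma adjusted p = 0.0116). With the array median as the scale 6 kinase genes were lower and 0 higher, and SAPK10 did not pass (difference 0.76, adjusted p = 0.0597), as it did not without wild-type replicate 2 (adjusted p = 0.0520). Of the 5 calls made with every array, the count came to 1 when wild-type replicate 2 was left out, 2 when wild-type replicate 3 was, and 3 when Line 13 replicate 2 was.

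Of 7 ABA-linked transcription factor genes 6 were tested, with 2 higher, 1 lower and a median difference of -0.26. ABI5, 1 of the 2 higher, was well above background on no wild-type array. It entered the test through the arrays labelled Line 13, with a floored fold of 2.58. Where a probe had to be well above background on each array, 1 was higher and 1 lower. The background correction that lifts dim signals gave the same counts. The bZIP gene bZIP46 stood at 1.001, 0.64 and 0.84 on the arrays labelled Line 13, against -1.65, -1.53 and -1.59 on those labelled wild type (difference 2.42, SE 0.18, limma adjusted p = 0.000124). Its relative bZIP72 stood at -0.65, -0.47 and -0.20 under the Line 13 label, against 1.53, 1.68 and 2.10 under the wild-type label (difference -2.21, SE 0.23, limma adjusted p = 0.000503). With the array median as the scale 2 factor genes were higher and 3 lower. The 2 factors thus differed in opposite directions, with no overlap of the groups for either.

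**Figure D3:**
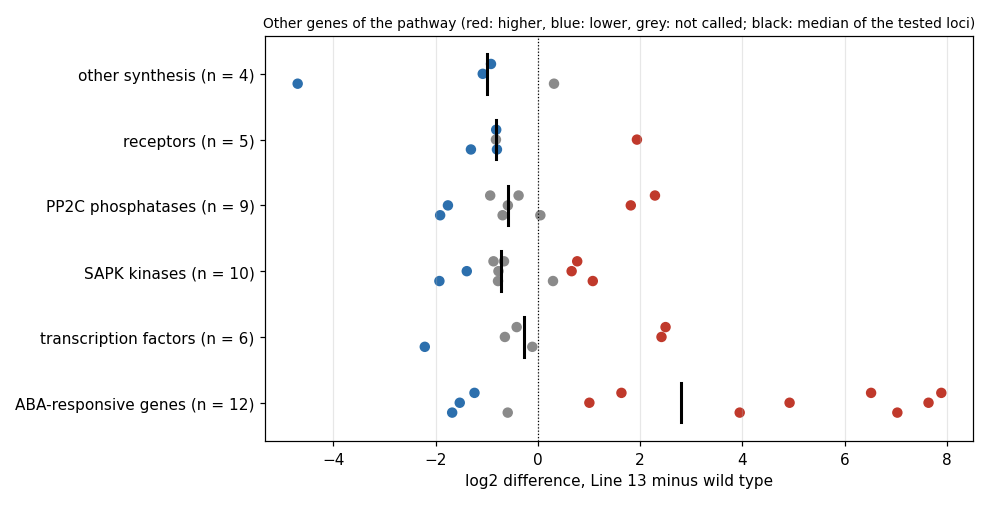
Log2 difference, Line 13 minus wild type by array label, of each tested gene of 6 lists of the ABA pathway. Red points were higher, blue points lower and grey points did not pass, and black bars are list medians, which are below 0 for 5 lists and 2.79 for the ABA-responsive genes.

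Genes that are known to respond to the hormone went in both directions. Of 13 listed genes 12 were tested, with 8 higher and 3 lower. Without wild-type replicate 2 or with quantile normalization 5 were higher and 3 lower. The median difference was 2.79, or 2.33 with 4 genes set at their floored differences. Of these 12 genes 91.7% passed, against 54.7% of everything tested. For 6 of the 8 risers, though, at least 1 wild-type array was not well above background. These 6 entered the test through the arrays labelled Line 13. All of the tested dehydrins and other late embryogenesis abundant (LEA) proteins, which protect cells as they dry, were among the risers.

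RAB16A, a dehydrin, stood well above background on every array. It stood at 2.47, 1.93 and 2.81 on the arrays labelled Line 13, against -4.93, -4.12 and -4.82 on those labelled wild type, a gap of 6.05 between the groups. The signal was 131-fold higher (difference 7.03, SE 0.33, limma adjusted p = 1.72e-05), or 44.7-fold with the background correction that lifts dim signals. RAB16B, a neighbouring dehydrin, stood at -0.41, -0.61 and 0.50 under the Line 13 label. Under the wild-type label it stood at -7.82, -7.80 and -7.82, none of these well above background. It passed (limma adjusted p = 1.13e-05), with a floored fold of 57.4. The background correction that lifts dim signals gave a 12.1-fold rise. The RAB16 genes are close relatives, and how far each probe binds the others was not tested.

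Further values of this list were looked up after they had been seen. LEA3 stood at 2.30, 1.57 and 3.45 on the arrays labelled Line 13 and at -6.87, -3.61 and -5.87 on those labelled wild type, with differences of 4.47 to 8.33 over its 4 probes. The brightest of these gave 7.89, or 8.81 without wild-type replicate 2, and without wild-type replicate 1 another probe was the brightest and gave 7.19. The LEA protein gene WSI18 had a floored fold of 27.9, and the background correction that lifts dim signals gave 6.83-fold on another probe. SalT, a salt-induced lectin, was 30.3-fold higher (difference 4.92, SE 0.71, limma adjusted p = 0.00182). SalT stood at 0.67, 3.26 and 3.06 on the arrays labelled Line 13, against -2.23, -2.42 and -3.13 on those labelled wild type, and was 53.9-fold higher without Line 13 replicate 1 (difference 5.75). The dehydrin RAB16C rose less, with a difference of 1.63 (SE 0.47, limma adjusted p = 0.0248), and RAB16D gave 1.01 (SE 0.29, limma adjusted p = 0.0257) over wild-type signals that were not well above background. The call of RAB16C was lost without wild-type replicate 2, without Line 13 replicate 2 or 3 and with quantile normalization, and that of RAB16D in 8 alternatives, with differences of 0.29 to 1.1 in these. The homeodomain gene HOX24 gave -1.39, -6.18 and -1.39 under the Line 13 label, against -6.70, -7.76 and -6.33 under the wild-type label. Replicate 2 of Line 13 thus lay close to the wild-type arrays. HOX24 was called higher (limma adjusted p = 0.0418), with a floored fold of 8.17, or 2.90-fold with the background correction that lifts dim signals. That call was lost without any single other array than Line 13 replicate 2 and in 3 further alternatives, while without that array the fitted difference was 5.54 (adjusted p = 0.000732, the lowest over the alternatives, with 0.164 the highest).

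Of the 5 transcription factor genes of this list, HOX24 was the only one higher and 3 were lower. NAC6, NAC5 and HOX22, regulators of stress responses, were lower by fitted differences of -1.24 (SE 0.27), -1.68 (SE 0.39) and -1.53 (SE 0.23), with limma adjusted p = 0.00947, 0.0117 and 0.00223. Another of the 4 probes of NAC5 gave a difference of -0.07 (SE 0.41). SNAC1 gave -0.59 (SE 0.38) and did not pass, with limma adjusted p = 0.228, and the seed LEA gene Em was not tested because it was well above background on 1 array. The cell division and root-expressed markers described above were higher on the same arrays as the dehydrins, and their part in these values was not tested.

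**Figure D4:**
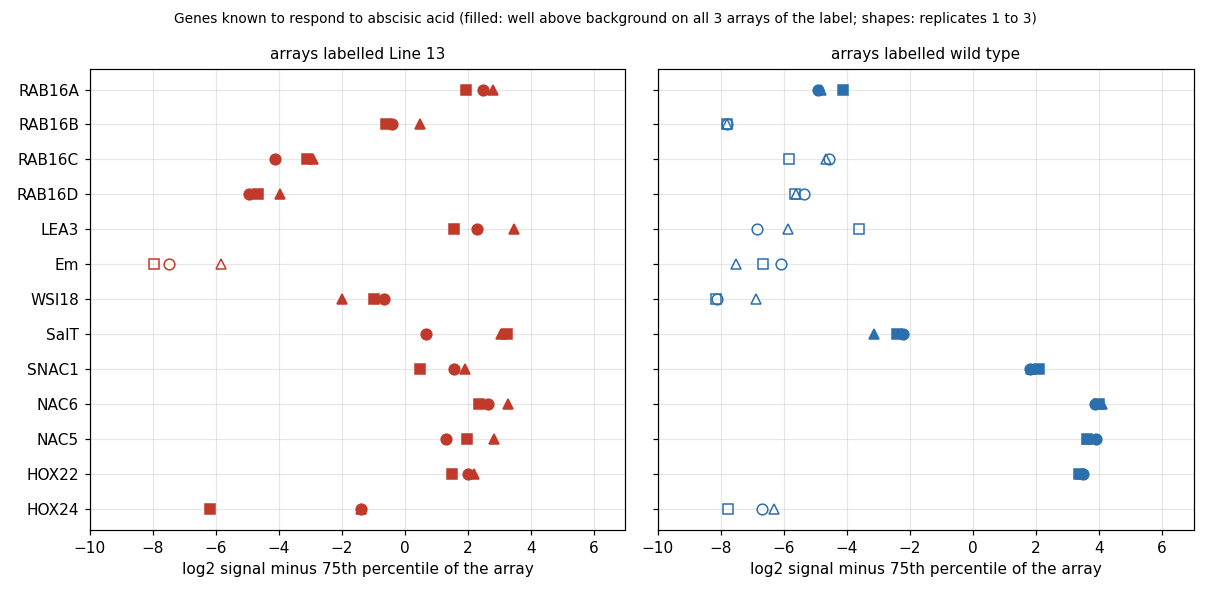
Scaled log2 signal of 13 genes known to respond to ABA, on the arrays labelled Line 13 (left) and wild type (right). Symbols are replicates 1 to 3 and are filled where all 3 arrays of the label were well above background. RAB16A lies between 1.93 and 2.81 on the left and between -4.93 and -4.12 on the right.

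The genes most alike in pattern were sought among the 52 other tested loci of the pathway, by Pearson correlation over the 6 arrays, which fall into the 2 labels. ABA8ox3 was most like NCED1/CCD4a (r = 0.998), NCED5 most like bZIP72 (r = 0.994), ABA1 most like the phosphatase gene PP2C49 (r = 0.992), ABA8ox2 most like ABA1 (r = 0.987), NCED4 most like RAB16B (r = 0.983) and NCED3 most like SAPK8 (r = 0.955). The SAPK8 probe used gave a difference of 0.29, while its other probes gave -0.33 and -0.19, and none of them passed, so that likeness holds for that probe only. NCED4 and RAB16B were both well above background on no wild-type array, so their match rests in part on signals near background. ABA8ox1 had the lowest best match, with NCED3 (r = 0.734). These values describe 6 arrays with 2 levels and carry no test.

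The locus numbers, which follow chromosomal order, place each hydroxylase gene beside another gene of the pathway. ABA8ox2 lies on chromosome 8 with 2 array loci between it and the bZIP gene TRAB1, ABA8ox3 on chromosome 9 with 3 between it and bZIP72, and ABA8ox1 on chromosome 2 with 2 between it and NCED1/CCD4a. In the first arrangement ABA8ox2 was lower (difference -2.07) while TRAB1 did not pass (difference -0.65, SE 0.26, limma adjusted p = 0.0720), although it did without Line 13 replicate 1 (difference -0.88, adjusted p = 0.00514) and in 2 other alternatives, with adjusted p up to 0.210 in the rest. In the second both ABA8ox3 and bZIP72 were lower, with differences of -2.96 and -2.21. In the third NCED1/CCD4a was lower, with a difference of -4.70, and ABA8ox1 did not pass. None of the 2 and 3 tested loci inside the arrangements on chromosomes 8 and 9 passed the test, and the single tested locus inside that on chromosome 2 was higher.

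**Figure D5:**
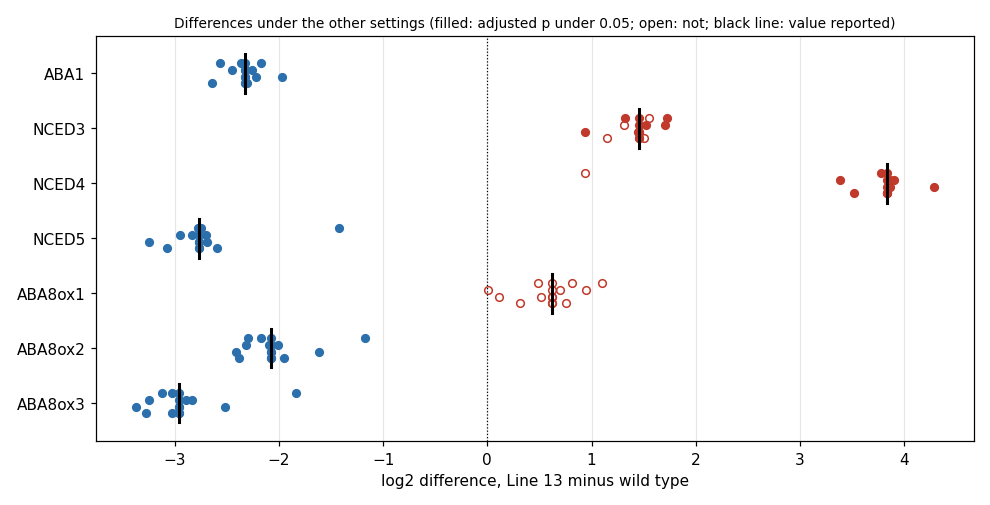
Log2 difference of each of the 7 genes, Line 13 minus wild type by array label, under 16 other processing settings, 15 for NCED4. Filled points passed at an adjusted p under 0.05, open points did not, and the black line is the value reported. ABA1, NCED5, ABA8ox2 and ABA8ox3 were lower in every setting run, while NCED3 lost its call in 5 settings and NCED4 in 1.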

How the data were processed

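RNA of 3 samples labelled Line 13 and 3 labelled wild type was hybridised to single-colour Agilent rice arrays (100 ng of RNA, 17 h at 65 °C, per the labels' protocols). The deposited intensity was made by Agilent Feature Extraction 10.10.1.1, per the file headers, with background subtracted and no scaling between arrays. The authors' deposited value table holds the same intensity times 1 constant per array, from 1.61 to 7.66, with column medians of 494.5, 554.8 and 561.4 for Line 13 and 395.6, 426.6 and 412.2 for wild type. It is linear and not centred, and the sources used here do not give the origin of the constants.

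Here log2 values minus the 75th percentile of each array were fitted with limma 3.58.1 in R 4.3.3 (2 groups, Benjamini-Hochberg adjustment, threshold 0.05) for probes well above background throughout either group of 3 arrays. A probe with several spots counts as such where at least 50% of them do. A locus stands for its brightest probe, 48 non-gene probes were left out, as were spots flagged as outliers, of which the 7 genes had 0. Tables used Python 3.11.15, and the fit was checked on simulated data. The p-values measure the spread between pooled samples. The members and lists were chosen with earlier results of these data known, as loci from general knowledge of rice. The named genes are the 7, for each list the 2 with the smallest unadjusted p, both carotenoid dioxygenases and the closest pattern of each member, and others named were chosen after their values were seen. The reference table of ASM3414082v1 lists 0 of the 7 identifiers but 5 of the 7 names, all on the chromosome of their identifier. No sequence is shown, since no file used here holds one. Alternatives cover the scale, the authors' table, background, filters, probes, the replicate number and each array left out.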

Additional observations from a re-analysis of the deposited data

How the results depend on the processing

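The differences of the 7 genes and of 25 other named genes and the counts of calls over 6 lists and the whole array were recomputed under up to 16 alternatives. No difference of a called gene changed sign. The balance of higher and lower calls turned in several alternatives. For kinases it turned with the array median (0 higher, 6 lower), normexp background correction, the mean of a locus's probes and the replicate block. It also turned for them without wild-type replicate 2 or Line 13 replicate 2 or 3. For transcription factors it turned with the array median and with uncollapsed probes. For the whole array it turned with the authors' table (6240 higher, 5784 lower), normexp and the replicate block. Leaving out any single wild-type array or Line 13 replicate 2 turned it too. The 4 lower genes of the 7 were lower and called in each alternative, with differences of -2.64 to -1.97 for ABA1, -3.24 to -1.42 for NCED5, -2.41 to -1.18 for ABA8ox2 and -3.37 to -1.83 for ABA8ox3. ABA8ox1 passed in none (0.01 to 1.1). The number of higher genes was 1 with the array median as the scale, 1 with normexp background correction on median signals (chosen after the data were seen, since the files have no mean signal), 1 when a probe had to be well above background on each of the 6 arrays, 1 with the replicate block, and 1 to 2 with 1 array left out. The cause was not tested, except that the filter removes NCED4. NCED3 ranged from 0.93 to 1.73 and NCED4 from 0.94 to 4.28.

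For everything tested, 3794 were higher with the filter on all 6 arrays, 9354 were lower when probes were not collapsed, which tests more probes, and 4700 to 7085 were higher and 4066 (without wild-type replicate 2) to 7509 lower with 1 array left out. Quantile normalization shifted the median difference over everything tested by -0.18 and no filter by -0.16. Calls rose to 7 phosphatases and 5 transcription factors with the array median as the scale. Uncollapsed probes, being more, gave 7 further synthesis, 12 kinase, 7 transcription factor and 25 responsive calls. The filter on all 6 arrays left 5 responsive calls, 2 higher and 3 lower of 6. With 1 array left out, calls were 2 to 4 for receptors and 1 to 7 for kinases. Of 480 recomputed differences of single genes 33 lost their call, 3 gained one and 444 did neither. Same-numbered arrays deviated from their group means with correlations of 0.112, -0.00435 and -0.0188, against -0.186 to 0.223 for differently numbered arrays. These values show no pairing by number but cannot exclude one. Under the replicate block 5512 were higher and 5388 lower, and NCED3 was the 1 gene of the 7 to lose its call. The lowest signal well above background was 6.62 to 7.97 on Line 13 arrays and 11.7 to 14.1 on wild-type arrays, which limits what can be said of NCED4.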
